A study of Mus musculus with 10 samples.

Results

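The sine oculis homeobox genes, here Six2, Six4 and Six5, and the Eya and Dach genes encode a small network of transcription regulators. The members described here are these 3 with Eya1, Eya2, Eya3, Eya4, Dach1 and Dach2. They were taken as the rows of the count files whose Ensembl gene identifier, without its version, carries 1 of these symbols in the GENCODE M21 annotation. All 9 members were found, among 38924 identifiers in the files.

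In the fly eye, sine oculis, eyes absent and dachshund act together, and the genes described here are their mouse counterparts. A sine oculis homeobox protein such as Six2 binds DNA through a homeodomain and pairs with its partners through a second conserved domain. An Eya protein does not bind DNA by itself, joins the homeodomain protein as a coactivator and carries a tyrosine phosphatase activity. A Dach protein is related to the corepressors Ski and Skil and can hold such complexes in a repressing state. The network is known from kidney, ear, muscle and cranial placodes, and, together with Tbx1, from the pharyngeal mesoderm that adds cells to the outflow end of the heart.

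RNA was sequenced from 10 samples in 4 groups, all sorted by flow cytometry from 1 mouse embryonic stem cell (mESC) line at day 5 of differentiation. The line makes a truncated human CD4 (hCD4) from the Foxa2 locus, so that a surface antibody reports Foxa2, a forkhead factor of endoderm, in living cells. It was kept in serum-free medium with PD, Lif and CHIR before differentiation. Foxa2+ CM (3 samples) is cardiac mesoderm (CM) that carried Pdgfra, Kdr and hCD4, and Foxa2- CM (3 samples) carried Pdgfra and Kdr without hCD4. Flk1+ high (2 samples) is named after Flk1, another name for Kdr, and was taken to be the haematopoietic mesoderm that the study sorted by high Kdr, which the label does not say. Its samples held 34.3 and 23.8 CPM of Pdgfra, against 201 to 306 CPM in the CM samples. These 3 groups came from cardiac cultures that received BMP4, VEGF and Activin A at 8 ng/ml. Endoderm (2 samples) carried hCD4 without Pdgfra or Kdr and was sorted from cultures given Activin A at 75 ng/ml. The sort and the culture therefore cannot be told apart for endoderm. All samples share the reporter line, and the labels do not say whether the replicates were separate cultures, so that the p-values measure the spread between these samples, which may be technical.

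The samples held between 10926284 and 17470126 counts on genes, and replicates of every group differed by more than counting noise (chi-square per degree of freedom 4.0 to 23.6). The summed level of 8 haemato-endothelial markers was 1266 to 1487 CPM (counts scaled to library size) in Flk1+ high, 301 to 521 CPM in the CM samples and 45.0 to 93.9 CPM in endoderm. The summed level of 7 endoderm markers was 819 to 974 CPM in endoderm and 40.4 to 155 CPM elsewhere, and that of 9 cardiac mesoderm markers was 1053 to 1431 CPM in the CM samples and 131 to 220 CPM in endoderm. In Flk1+ high the cardiac mesoderm markers still summed to 745 to 942 CPM. Kdr, after which the group is named, made up 554 and 593 CPM of this. In endoderm the 4 undifferentiated markers summed to 368 to 373 CPM, the highest of the 4 groups. Zfp42, 1 of these 4, was lower there than in the CM samples. By these sums each group held the markers of its label, with those of other populations beside them. The lists include genes of the sorts (Kdr and Pdgfra for cardiac mesoderm, Foxa2 for endoderm), whose levels follow in part from the gates. Foxa2 itself stood at 20.03, 16.03 and 3.497 CPM in Foxa2+ CM replicates 1, 2 and 3, against 0.873 to 2.54 CPM in Foxa2- CM, so replicate 3 lay close to the Foxa2- CM samples for the gene of the sort.

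Levels below are CPM per kilobase of exon (CPM/kb), which allows genes to be compared with each other, and differences are log2 fold changes from edgeR's quasi-likelihood test. A difference was called where the p-value, adjusted over all genes tested, was under 0.05, with no limit on its size. In sorted populations, fewer cells that express a gene and less RNA per cell cannot be told apart.

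RefSeq promoter windows (GRCm38.p6, from 250 bases before to 50 after the start of a transcript) matched 7 of the 9 members, in 10 windows. Only the stretches upstream of the annotated genes are shown, for the most abundant homeobox member and the most abundant Eya gene, since the levels of Six2 moved between the groups and those of Eya3 hardly did. The first lies at chr17:85688275-85688504 on the minus strand and the second at chr4:132638796-132638986 on the plus strand. Capitals mark a match to AGATAA, a form of the site that GATA factors bind.
Six2: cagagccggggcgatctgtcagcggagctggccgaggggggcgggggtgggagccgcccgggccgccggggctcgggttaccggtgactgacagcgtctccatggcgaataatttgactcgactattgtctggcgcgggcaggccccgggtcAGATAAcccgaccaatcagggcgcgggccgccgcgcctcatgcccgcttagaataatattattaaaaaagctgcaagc
Eya3: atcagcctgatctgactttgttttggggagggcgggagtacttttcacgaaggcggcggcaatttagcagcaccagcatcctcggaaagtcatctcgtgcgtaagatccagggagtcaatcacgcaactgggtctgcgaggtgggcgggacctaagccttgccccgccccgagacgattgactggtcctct

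The Six2 stretch of 230 bases held 24 CG dinucleotides at a GC content of 64.8%, and the Eya3 stretch of 191 bases held 13 at 57.6%. The letters AGATAA, searched on both strands of the whole windows, were found in 1 of the 10 member windows, that of Six2, and in 11.2% of all 32851 windows. TGTTTAC, a forkhead form, was in none of the 10 and in 3.65% of all windows. TCAGGTT, a form bound by sine oculis homeobox proteins, was in 1 member window, a Six4 window, and in 4.07% of all windows. These matches describe letters in a window and say nothing on binding.

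Six2, a factor best known for holding nephron progenitors undifferentiated, was the most abundant member in every CM sample. The gene (ENSMUSG00000024134.10, chromosome 17, 85684277 to 85688274, minus strand) stood at 82.3, 67.5 and 60.2 CPM/kb in Foxa2+ CM replicates 1, 2 and 3 and at 68.5, 71.6 and 51.9 CPM/kb in Foxa2- CM. It stood at 17.9 and 35.4 CPM/kb in Flk1+ high and at 11.7 and 26.5 CPM/kb in endoderm. The CM groups overlapped, and each of their 6 samples lay above all 4 others. By level per length Six2 was at the 99.3rd percentile of tested genes in Foxa2+ CM and at the 73.4th in endoderm. Against Foxa2+ CM, Six2 was lower in endoderm by a log2 fold change of -1.87 (standard error, SE, 0.37, edgeR adjusted p = 0.00402) and in Flk1+ high by -1.40 (SE 0.36, edgeR adjusted p = 0.0211). Against Foxa2- CM these differences were -1.74 (SE 0.37, edgeR adjusted p = 0.00669) and -1.27 (SE 0.36, edgeR adjusted p = 0.0320). Endoderm and Flk1+ high were not told apart (log2 fold change -0.47, 95% interval -1.35 to 0.41, edgeR adjusted p = 0.400). Nor were the CM groups (0.13, interval -0.20 to 0.47, edgeR adjusted p = 0.752).

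The density of Six2 reads bears on the size of these differences. The authors removed duplicate reads, and single-end reads of 1 start and strand are duplicates of each other, so that a gene keeps at most 2 counts per exonic base. Six2 had 1.12 counts per exonic base in Foxa2+ CM and 0.976 in Foxa2- CM, against 0.367 in Flk1+ high and 0.221 in endoderm. The CM samples were thus the ones closest to the limit, and how much of the Six2 difference the removal took away was not tested. Eya3 came next at 0.332 to 0.490 counts per exonic base, and the group means of the other members lay at or below 0.217.

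**Figure D1:**
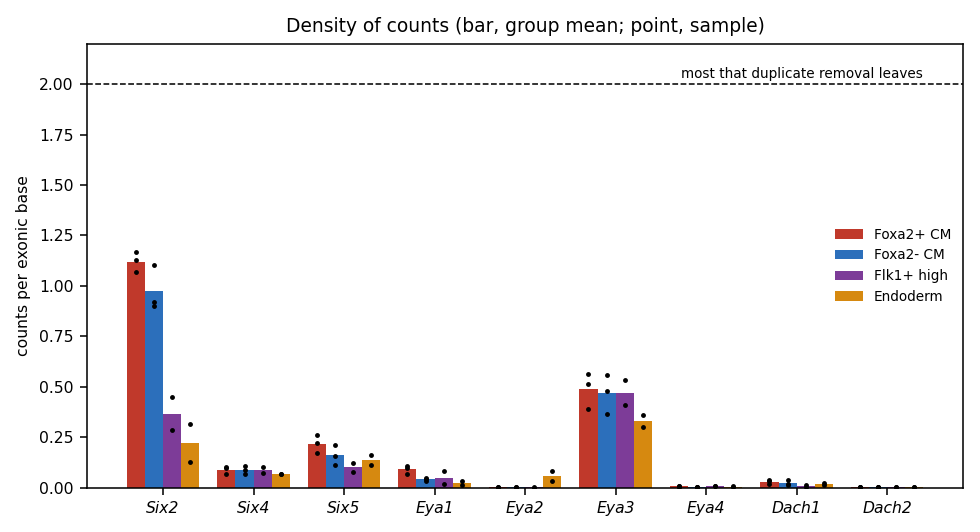
Counts per exonic base of the 9 members; bars are the means of the 4 groups, points the samples and the dashed line the 2 counts per base that duplicate removal leaves at most. Six2 in the CM groups, at means of 1.12 and 0.976, stands closest to the line.

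Six4, known for its part in muscle formation, hardly varied. The gene (ENSMUSG00000034460.8, chromosome 12, 73099609 to 73113456, minus strand) stood at 5.01, 5.59 and 5.85 CPM/kb in Foxa2+ CM, 5.36, 5.40 and 5.92 in Foxa2- CM, 6.42 and 5.58 in Flk1+ high and 6.30 and 5.73 in endoderm. All groups overlapped, and its 10 samples spanned 0.36 on the log2 CPM scale. None of its 6 comparisons was called. The widest 95% interval among these, that of endoderm against Flk1+ high, ran from -0.24 to 0.25.

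Six5, a neighbour of the myotonic dystrophy kinase gene Dmpk, was lowest in Flk1+ high. The gene (ENSMUSG00000040841.5, chromosome 7, 19094594 to 19098549, plus strand) stood at 12.5, 12.7 and 14.7 CPM/kb in Foxa2+ CM and at 9.84, 8.98 and 11.8 CPM/kb in Foxa2- CM. It stood at 10.7 and 13.5 CPM/kb in endoderm and at 7.70 and 6.10 CPM/kb in Flk1+ high. Both Flk1+ high samples lay below the other 8. Flk1+ high was lower than Foxa2+ CM by -0.95 (SE 0.17, edgeR adjusted p = 0.00451) and lower than Foxa2- CM by -0.57 (SE 0.17, edgeR adjusted p = 0.0414), and endoderm was higher than Flk1+ high by 0.81 (SE 0.18, edgeR adjusted p = 0.00851). The samples of the CM groups did not overlap, yet their difference of 0.38 (SE 0.12, 95% interval 0.09 to 0.67) was not called (edgeR adjusted p = 0.132). Without Foxa2- CM replicate 3 it was 0.51 and called (edgeR adjusted p = 0.0137). It was also called, at 0.39, with the replicate number as a block (edgeR adjusted p = 0.00397).

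Eya1, the gene mutated in branchio-oto-renal syndrome, was the only member called between the CM groups in the main test of their 6 samples. The gene (ENSMUSG00000025932.8, chromosome 1, 14168954 to 14310235, minus strand) stood at 5.06, 6.10 and 5.39 CPM/kb in Foxa2+ CM and at 2.73, 2.65 and 2.57 CPM/kb in Foxa2- CM. The groups were far apart compared with their spread, and Foxa2+ CM replicate 3, low in Foxa2, lay with its group for Eya1. The log2 fold change was 1.06 (SE 0.09, 95% interval 0.84 to 1.27, edgeR adjusted p = 0.00174), which is a level 2.08-fold higher in Foxa2+ CM. In 6 fits that each left out 1 CM sample it stayed between 0.97 and 1.11 and was called in all 6. In the model of all 10 samples it was of the same size, 1.06, but not called (edgeR adjusted p = 0.225). That model takes 1 spread from all groups. The 2 Flk1+ high samples differed 3.44-fold in Eya1, and the part of this in the lost call was not tested. The 2 cofactors called between the CM groups (below) were not called in that model either. With the replicate number as a block, Six5 and Eya4 were called beside Eya1 (edgeR adjusted p = 0.00397 and 0.0175).

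In the other groups Eya1 stood at 5.03 CPM/kb in Flk1+ high replicate 1, just under the lowest Foxa2+ CM sample, and at 1.46 CPM/kb in replicate 2, below every CM sample. It stood at 1.38 and 2.57 CPM/kb in endoderm, where both samples lay below those of Foxa2+ CM. Endoderm was lower than Foxa2+ CM by -1.48 (SE 0.44, edgeR adjusted p = 0.0274), and was not told apart from Foxa2- CM (-0.42, 95% interval -1.39 to 0.55, edgeR adjusted p = 0.502). Flk1+ high was not told apart from any group (edgeR adjusted p = 0.233 against Foxa2+ CM, 0.668 against Foxa2- CM and 0.280 against endoderm). Without its replicate 1 it was lower than Foxa2+ CM by -1.91 (edgeR adjusted p = 0.00336). Without its replicate 2 it was higher than Foxa2- CM by 0.90 (edgeR adjusted p = 0.0419), and endoderm was lower than it by -1.34 (edgeR adjusted p = 0.00750).

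Eya2, known from placodes and muscle precursors, rose above a few counts in the endoderm samples alone. The gene (ENSMUSG00000017897.12, chromosome 2, 165595032 to 165771727, plus strand) had 90 and 240 counts in endoderm. It had 2, 4 and 1 counts in Foxa2+ CM, 3, 1 and 4 in Foxa2- CM, and 6 and 0 in Flk1+ high. On the level scale endoderm stood at 2.83 and 6.78 CPM/kb, while the highest of the other 8 samples, Flk1+ high replicate 1, stood at 0.127 CPM/kb. Most of the other samples were at or near the level of 3 counts, 0.0571 to 0.0804 CPM/kb in these libraries, and the 0 in Flk1+ high replicate 2 allows up to 0.0797 CPM/kb. From the summed counts, endoderm was 101-fold above Foxa2+ CM (exact 95% interval 48.6 to 254, counting error only), 84.5-fold above Foxa2- CM (42.4 to 197) and 69.4-fold above Flk1+ high (31.6 to 191). The 2 endoderm samples differed 2.39-fold between themselves. Between the CM groups Eya2 did not pass the filter on low counts and was not tested. It entered the other comparisons only through the endoderm samples, so that its calls there follow from its counts and are a description. The summed level of the undifferentiated markers was also highest in endoderm, at 368 to 373 CPM against 26.1 to 118 CPM elsewhere. Against each CM group 3 of these 4 markers were called higher in endoderm and 1 lower. Nanog stood at 162 and 156 CPM and Sox2 at 90.9 and 102 CPM in the endoderm samples. Zfp42 went the other way against the CM samples, at 2.05 and 2.26 CPM in endoderm and 4.68 to 5.94 CPM in CM. In Flk1+ high it stood at 1.38 and 1.97 CPM. The part of these markers in the Eya2 level was not tested.

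Eya3, an Eya gene found in many tissues, was the most even member. The gene (ENSMUSG00000028886.9, chromosome 4, 132638987 to 132724765, plus strand) stood at 28.5, 29.8 and 31.8 CPM/kb in Foxa2+ CM and at 29.7, 29.2 and 31.6 CPM/kb in Foxa2- CM. It stood at 33.3 and 32.4 CPM/kb in Flk1+ high and at 28.1 and 30.2 CPM/kb in endoderm. Its 10 samples spanned 0.24 on the log2 CPM scale, the smallest span of the 9 members. Between the CM groups the difference was -0.0046 (95% interval -0.15 to 0.14, edgeR adjusted p = 0.987). Both Flk1+ high samples lay above the other 8, but no difference was called, and the largest, endoderm against Flk1+ high, was -0.17 (95% interval -0.34 to -0.0038, edgeR adjusted p = 0.111).

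Eya4, mutated in a form of hearing loss with dilated cardiomyopathy, was present at a low level. The gene (ENSMUSG00000010461.8, chromosome 10, 23102963 to 23350786, minus strand) had 42, 54 and 73 counts in Foxa2+ CM and 31, 21 and 40 in Foxa2- CM. As levels these were 0.326, 0.332 and 0.437 CPM/kb against 0.204, 0.177 and 0.240 CPM/kb. The CM groups did not overlap, and the difference of 0.81 (SE 0.22, 95% interval 0.29 to 1.33) missed the threshold (edgeR adjusted p = 0.0790). With the replicate number as a block it was 0.82 and called (edgeR adjusted p = 0.0175). Flk1+ high stood at 0.380 and 0.468 CPM/kb, above all Foxa2- CM samples, and its difference from them, 1.02 (SE 0.38), was not called (edgeR adjusted p = 0.0891). It was called at 1.01 without either endoderm sample (edgeR adjusted p = 0.0290 without replicate 1 and 0.0295 without replicate 2). The endoderm samples stood at 0.188 and 0.524 CPM/kb, a 2.79-fold spread between 2 replicates, and endoderm was higher than Foxa2- CM without endoderm replicate 1 (1.30, edgeR adjusted p = 0.0240).

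Dach1, a corepressor known in limb and in the growth of coronary arteries, was lowest in Flk1+ high. The gene (ENSMUSG00000055639.10, chromosome 14, 97786853 to 98169765, minus strand) stood at 1.26, 2.25 and 1.87 CPM/kb in Foxa2+ CM and at 1.06, 1.01 and 2.21 CPM/kb in Foxa2- CM, so that replicate 3 of Foxa2- CM lay among the samples of the other CM group. It stood at 1.94 and 0.983 CPM/kb in endoderm and at 0.677 and 0.204 CPM/kb in Flk1+ high, below the other 8 samples. Flk1+ high was lower than Foxa2+ CM by -2.00 (SE 0.57, edgeR adjusted p = 0.0326). Against Foxa2- CM the difference was -1.67 (SE 0.56, edgeR adjusted p = 0.0631), and endoderm against Flk1+ high was 1.70 (SE 0.60, edgeR adjusted p = 0.0570), neither of them called. Without a filter on low counts both were called (edgeR adjusted p = 0.0351 and 0.0352), as they were with DESeq2 (adjusted p = 0.0123 and 0.0172). Between the CM groups the difference was 0.32 with a wide 95% interval, -0.47 to 1.11 (edgeR adjusted p = 0.750).

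Dach2, the paralogue of Dach1 on the X chromosome, was the rarest member in endoderm, and elsewhere Eya2 alone had a lower mean. The gene (ENSMUSG00000025592.11, chromosome X, 113297510 to 113836386, plus strand) had 7 to 22 counts per sample. Its levels were 0.0963, 0.0997 and 0.0514 CPM/kb in Foxa2+ CM and 0.1004, 0.129 and 0.0515 CPM/kb in Foxa2- CM. They were 0.0763 and 0.0559 CPM/kb in Flk1+ high and 0.151 and 0.186 CPM/kb in endoderm. Both endoderm samples lay above the other 8, and no difference was called (edgeR adjusted p = 0.0872 against Foxa2+ CM, 0.151 against Foxa2- CM and 0.0656 against Flk1+ high).

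**Figure D2:**
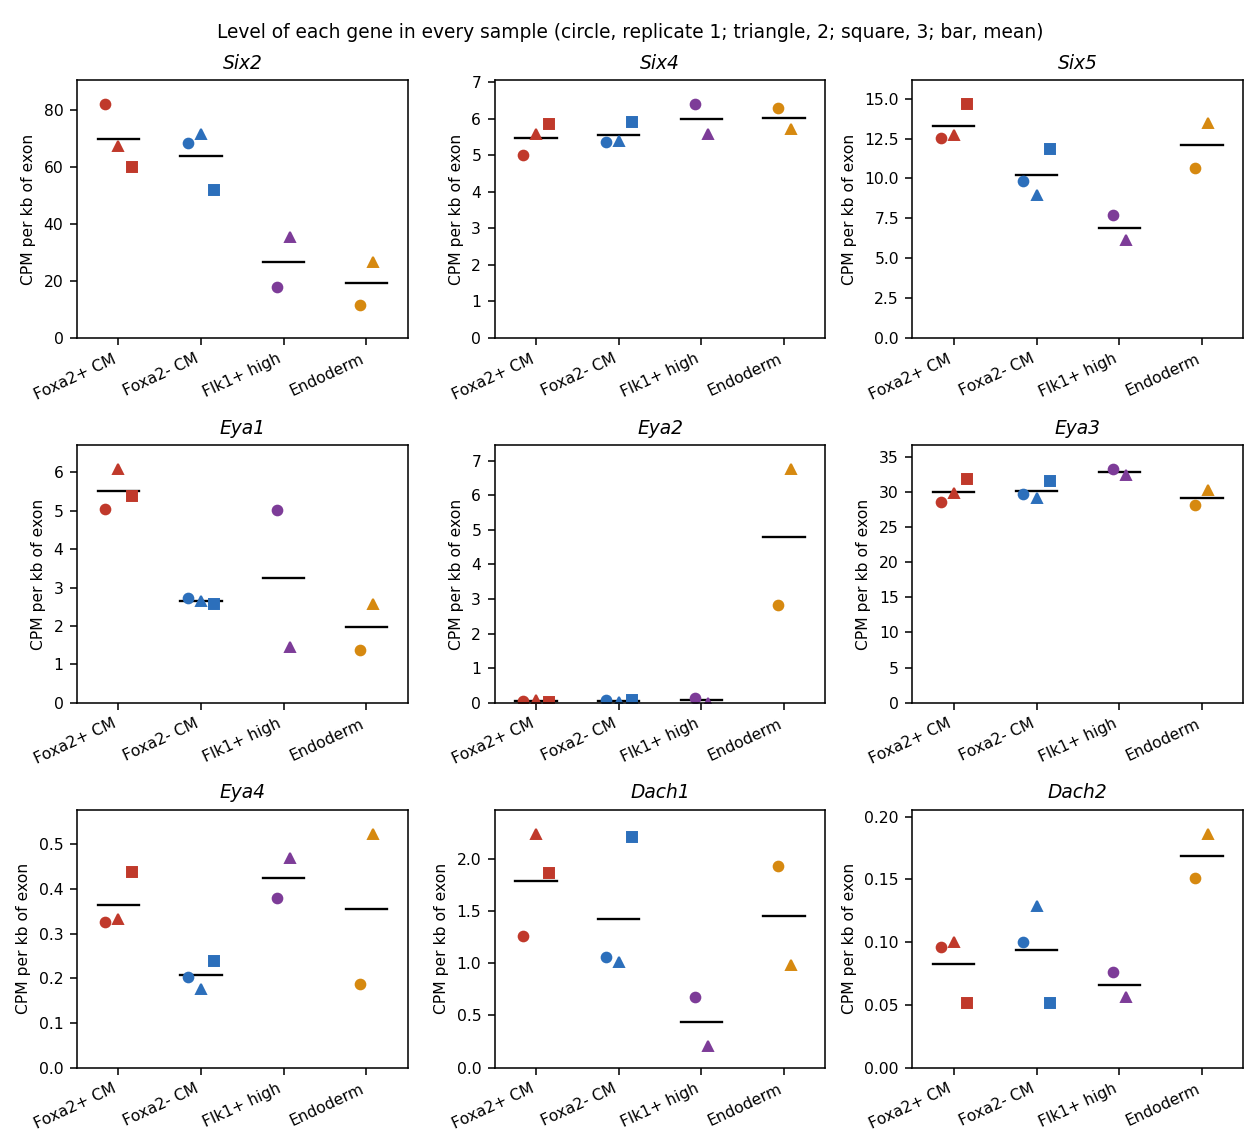
Level of each member in CPM per kb of exon in the 10 samples; the marker shape gives the replicate number, the colour the group and the bar the group mean, and every axis starts at 0. Eya1 separates the CM groups (5.06 to 6.10 against 2.57 to 2.73), Eya2 stands at 2.83 and 6.78 in endoderm and reaches 0.127 elsewhere, and Six4 and Eya3 are level across the groups.

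The 4 groups were also ordered by mean level for each member. Among neighbours in this order, Foxa2- CM was called above Flk1+ high for Six2 and for Six5, in a comparison that called 21.6% of all genes. Endoderm was called above Flk1+ high for Eya2, with the limit given above, where 32.6% of all genes were called. No other pair of neighbours was told apart, and for Eya2 the CM pair was not tested. The order leaves out the called Eya1 difference between the CM groups, since the mean of Flk1+ high fell between them. In replicate 3 of both CM groups, Six2 and Dach2 were at their lowest of the group and Six4, Six5, Eya3 and Eya4 at their highest. The haematopoietic factor Tal1 stood at 112 and 101 CPM in these samples and at 34.9 to 58.1 CPM in the other 4 CM samples. Of the other haemato-endothelial markers, Cdh5, Pecam1, Fli1, Runx1 and Gata1 also peaked in replicate 3 of each CM group. Etv2 was instead lowest there (97.6 and 91.1 CPM, Foxa2+ CM first). Lmo2 was lowest in replicate 3 of Foxa2+ CM (88.0 CPM) but highest in that of Foxa2- CM (63.7 CPM). The part of these markers in the members' levels was not tested.

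The first comparison, between the CM groups, asks what sets the Foxa2-expressing cardiac mesoderm apart. It called 6.48% of 15284 genes tested, 3.81% as higher and 2.66% as lower in Foxa2+ CM. Of the 8 members tested, 1 was called, Eya1, which was higher. The median log2 fold change was 0.23 over the 8 members and -0.0014 over all genes tested. The undifferentiated markers summed to 44.8 to 51.6 CPM in Foxa2+ CM and 78.0 to 118 CPM in Foxa2- CM, with 2 of the 4 called lower. Among the 7 endoderm markers, which include Foxa2, the gene of the sort, 3 were called higher. Of the 9 cardiac mesoderm markers, 2 were called higher and 3 lower. Of the 8 haemato-endothelial markers 1 was called higher, and of the 4 paraxial and presomitic markers tested 1 was called lower. The part of all these markers in the Eya1 difference was not tested. The mean Eya1 level was 1.98 CPM/kb in endoderm, against 5.51 and 2.65 CPM/kb in the CM groups.

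Endoderm against Foxa2+ CM called 35% of 16180 genes (18.3% higher and 16.7% lower in endoderm) and 3 of 9 members, with Eya2, which passed the filter only through endoderm, higher and Six2 and Eya1 lower. Endoderm against Foxa2- CM called 30.1% (16.1% higher and 14% lower) and 2 of 9 members, Eya2 higher and Six2 lower. Both comparisons use the same endoderm samples. The median over the members was -0.04 and 0.11, against 0.0072 and 0.0050 over all genes. The calls of Six2 in both comparisons held with each of the 10 samples left out. That of Eya1 held in 7 of 10 such fits and was lost without Foxa2+ CM replicate 2 (-1.40, edgeR adjusted p = 0.0710), Foxa2+ CM replicate 3 (-1.49, 0.0538) or endoderm replicate 1 (-1.14, 0.178).

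Flk1+ high against Foxa2+ CM called 22.8% of 16180 genes (11.6% higher and 11.2% lower in Flk1+ high) and 3 of 9 members, Six2, Six5 and Dach1, all lower. The median over the members was -0.29, against 0.03 over all genes. Six5 kept its call in all 10 fits that left out a sample. Six2 lost it without Foxa2+ CM replicate 1 (-1.30, edgeR adjusted p = 0.0614), Foxa2+ CM replicate 2 (-1.42, 0.0516) or Flk1+ high replicate 1 (-0.98, 0.0950). Dach1 lost it without Foxa2+ CM replicate 2 (-1.81, edgeR adjusted p = 0.0912), Foxa2+ CM replicate 3 (-1.97, 0.0644) or Flk1+ high replicate 2 (-1.44, 0.142).

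Flk1+ high against Foxa2- CM called 21.6% of 16180 genes (11.3% higher and 10.3% lower in Flk1+ high) and 2 of 9 members, Six2 and Six5, both lower. It shares the Flk1+ high samples with the comparison before. The median over the members was 0.11, against 0.02 over all genes. Six2 lost its call without Foxa2+ CM replicate 2 (-1.27, edgeR adjusted p = 0.0532), Foxa2- CM replicate 1 (-1.23, 0.0820), Foxa2- CM replicate 2 (-1.20, 0.0830) or Flk1+ high replicate 1 (-0.85, 0.138). Six5 lost it in 6 of the 10 fits: without any 1 of the Foxa2+ CM samples (-0.58 to -0.57, edgeR adjusted p = 0.0515 to 0.0657), Foxa2- CM replicate 1 (-0.62, 0.0817), Foxa2- CM replicate 3 (-0.45, 0.1002) or Flk1+ high replicate 2 (-0.43, 0.212). Dach1 was called without Flk1+ high replicate 1 (-2.80, edgeR adjusted p = 0.0219).

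Endoderm against Flk1+ high called 32.6% of 16180 genes (16.4% higher and 16.2% lower in endoderm) and 2 of 9 members, Six5 and Eya2, both higher. Here too Eya2 passed the filter only through endoderm. The median was 0.0036 over the members and -0.0042 over all genes. The call of Six5 was lost without endoderm replicate 2 (0.63, edgeR adjusted p = 0.0771) or Flk1+ high replicate 2 (0.65, 0.0612). Dach1 was called without Foxa2- CM replicate 3 (1.70, edgeR adjusted p = 0.0381) or Flk1+ high replicate 1 (2.82, 0.0155), and Dach2 without Foxa2- CM replicate 3 (1.33, 0.0392).

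**Figure D3:**
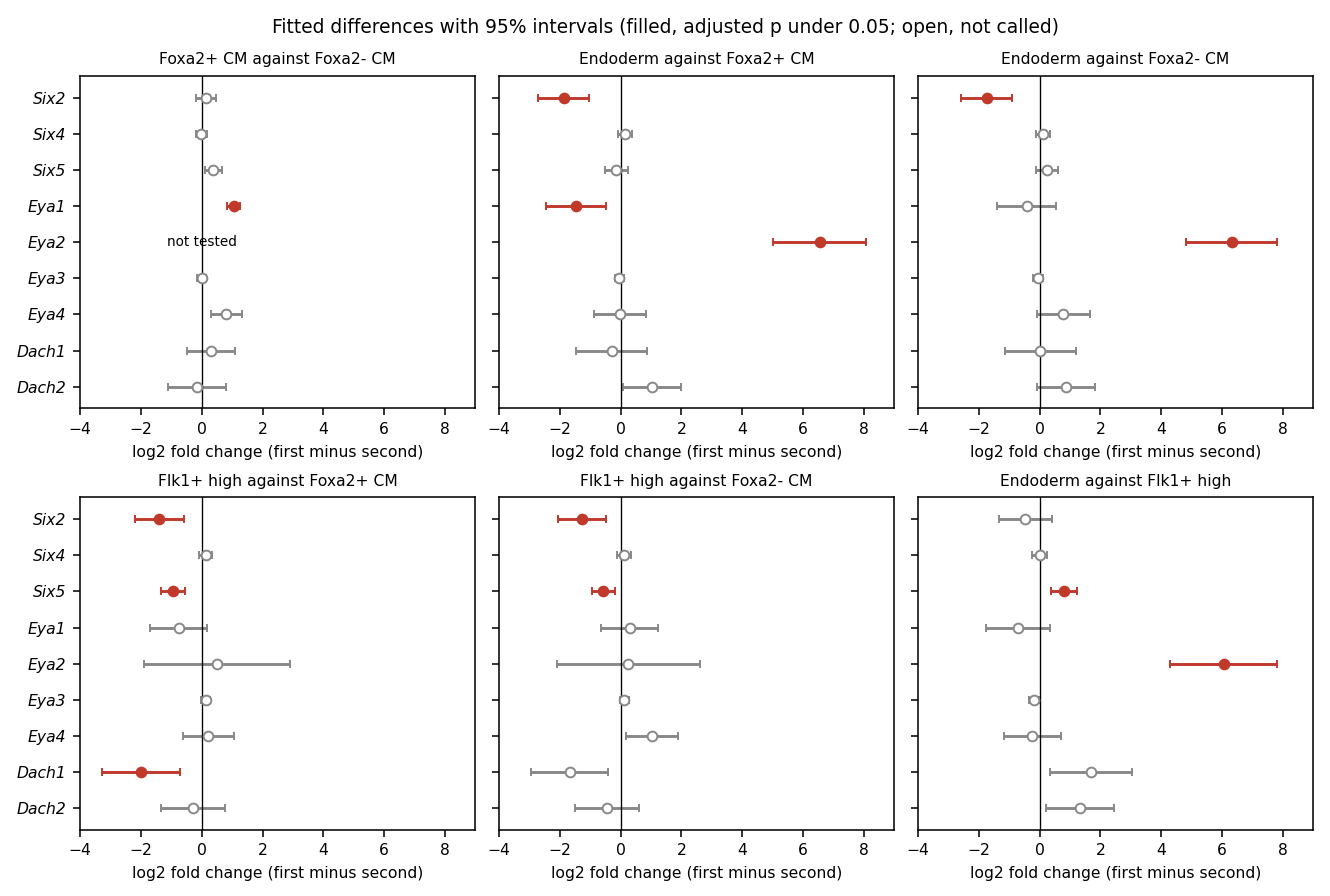
Log2 fold change, first group minus second, with its 95% interval for the members in the 6 comparisons; filled points were called at an adjusted p under 0.05. Intervals are narrow for Six4 and Eya3 and wide for the low-count genes; Eya2 in endoderm lies at 6.06 to 6.55, fitted values that rest on few counts in the other groups.

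Within each family 1 gene held the largest share of the summed level in all 10 samples, Six2, Eya3 or Dach1. Six2 made up 78.5% ± 3.9 of the summed level of Six2, Six4 and Six5 in Foxa2+ CM and 79.9% ± 4.7 in Foxa2- CM (SD, n = 3 each), 55.8% and 75.2% in the Flk1+ high samples and 40.7% and 57.9% in the endoderm samples. Eya3 made up 83.5% ± 1.3 of the Eya level in Foxa2+ CM and 91.2% ± 0.40 in Foxa2- CM (SD, n = 3 each). Eya1 made up 15.3% ± 1.3 and 8.03% ± 0.49 in the same order. In endoderm Eya2 held 8.69% and 16.9% of the Eya level, against at most 0.327% in any other sample. Dach1 held 78.5% to 97.7% of the Dach level in all 10 samples.

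The summed Eya level had means of 36.0 CPM/kb in Foxa2+ CM, 33.1 in Foxa2- CM, 36.6 in Flk1+ high and 36.3 in endoderm. The summed level of Six2, Six4 and Six5 was 88.8 and 79.8 CPM/kb in the CM groups, against 39.5 in Flk1+ high and 37.2 in endoderm. Between the CM groups the share of Eya1 differed by 7.31 percentage points, that of Eya3 by -7.67 and that of Eya4 by 0.39, each without overlap of the samples. The two-sided exact permutation p was 0.1 for each of these 3 shares, the smallest that 3 samples against 3 can give, and 0.3 after adjustment over the 9 shares. The shares of the other 6 members gave exact permutation p-values between 0.5 and 0.8. Shares of 1 family sum to 100%, so that those of Eya1 and Eya3 are not separate results.

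**Figure D4:**
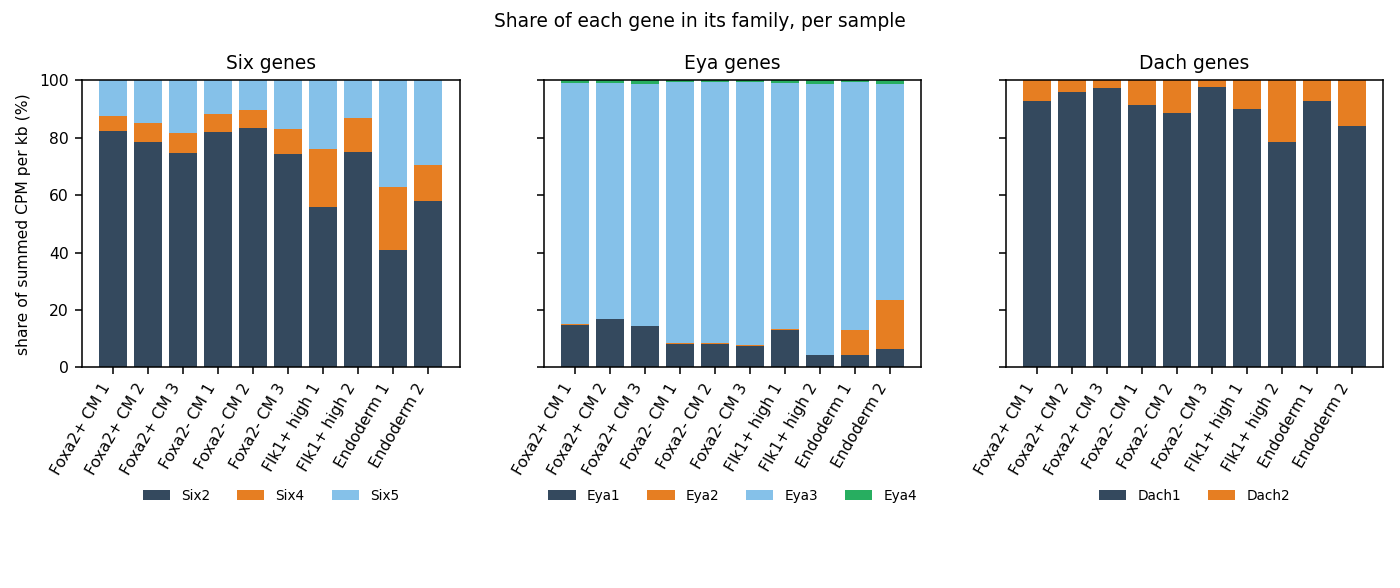
Share of each gene in the summed CPM per kb of its family, as a percentage, with 1 stacked bar per sample. Eya1 takes 14.3% to 16.8% of the Eya level in Foxa2+ CM and 7.46% to 8.33% in Foxa2- CM, and Eya2 is visible in the endoderm bars alone.

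Partners of the network from general knowledge were counted in the same tests. Of 8 upstream genes (Pax genes, Tbx1 and Foxi3), 3 were tested between the CM groups and none was called by edgeR (1 at an unadjusted p under 0.05), while DESeq2 called Pax2. Of 13 cofactors and corepressors, edgeR called 2, both higher in Foxa2+ CM, where it called 6.48% of all genes. DESeq2 called 4, Tle1 and Tle4 beside the same 2. The 2 called by edgeR were Tle2, a Groucho-type corepressor, at 20.1 against 11.4 CPM on average (log2 fold change 0.82, SE 0.12, edgeR adjusted p = 0.0107), and Aes, a short Groucho relative, at 35.0 against 26.9 CPM (0.38, SE 0.09, edgeR adjusted p = 0.0484). Of 14 genes known as targets, 10 were tested and edgeR called none (5 at an unadjusted p under 0.05), while DESeq2 called Fgf10 and Igfbp5. In the model of all 10 samples no cofactor was called either (5 at an unadjusted p under 0.05). The shares of all genes called by DESeq2 and by that model are not given here, so their counts cannot be set against a background. The median log2 fold changes were 0.46 for the upstream genes, -0.0059 for the cofactors and 0.0037 for the targets.

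Endoderm against Foxa2+ CM called 3 of 4 upstream genes (2 higher), 7 of 13 cofactors (6 higher) and 7 of 10 targets (5 higher), where 35% of all genes were called. Endoderm against Foxa2- CM called 3 of 4 (2 higher), 7 of 13 (6 higher) and 5 of 10 (4 higher), in the same order, against 30.1% of all genes. Flk1+ high against Foxa2+ CM called 2 of 4 (1 higher), 5 of 13 (1 higher) and 6 of 10 (1 higher), against 22.8%. Flk1+ high against Foxa2- CM called 2 of 4 (1 higher), 3 of 13 (1 higher) and 6 of 10 (2 higher), against 21.6%. Endoderm against Flk1+ high called 1 of 4 (higher), 5 of 13 (all higher) and 6 of 10 (5 higher), against 32.6%. In all these comparisons the targets are read in the same samples as the members, and a link between them was not tested.

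For each member the 2 genes with the most similar profile were sought among 12128 genes, by Pearson's r of log2 CPM over the 10 samples. Since the samples form 4 groups and share their libraries, these values describe the profiles and carry no test. Six2 was followed most closely by Rftn1 (r = 0.988) and Gata4, the cardiac zinc-finger factor (r = 0.986). Eya2 was followed by Dtx4 (r = 0.986) and by Ntn1, which encodes the guidance cue netrin (r = 0.985), and Dach1 by Raph1 (r = 0.985) and Trerf1 (r = 0.963). The closest to Six5 were Zfp532 (r = 0.976) and Gpsm2 (r = 0.972), and to Eya1 Fars2 (r = 0.947) and Plod1, a collagen lysyl hydroxylase (r = 0.939). Those of Six4 were Ocrl (r = 0.946) and Tmem231 (r = 0.942), of Eya3 Camkk2 (r = 0.958) and Wdr11 (r = 0.946), of Eya4 Socs5 (r = 0.938) and Npepl1 (r = 0.910), and of Dach2 Map1lc3b (r = 0.974) and Slc25a17 (r = 0.971).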

How the data were processed

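RNAseq counts of 10 sorted samples were used, with groups and replicate numbers from the labels. Per the labels and the study's methods, the authors made unstranded TruSeq libraries, aligned 50 nt single-end reads to mm10 (STAR 2.5.0a), removed duplicate reads (Picard) and deposited whole-number counts per Ensembl gene (HTSeq 0.6.0), not normalized. Reads on no gene were 17.1% to 25.6% and ambiguous reads 2.18% to 2.37% of each sample, and were left out. Of 38924 identifiers, 37607 matched GENCODE M21, which gave positions and exonic lengths; no member shares exonic bases with another gene.

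Counts were tested with edgeR 4.0.16 (TMM, its default expression filter, quasi-likelihood test, Benjamini-Hochberg adjustment) in R 4.3.3. The CM groups were compared over their 6 samples, and the other 5 comparisons in 1 model of all 10. SEs were worked back from the fold change and the F statistic, so they add nothing to the p-value. Shares used exact permutation tests (scipy 1.17.1). On simulated data 200 genes averaging at least 50 counts were changed by 1.5 (log2). The test recovered 97% of them with 10 false calls among 15284 genes for the CM groups, and 86% with 7 among 16180 for endoderm against Foxa2+ CM. These rates do not cover smaller changes or genes with fewer counts, such as Eya4 and Dach2. Profiles were compared for genes averaging at least 50 counts. The exact intervals of the Eya2 count ratios and the 3-count level cover counting error only. The intervals of the log2 fold changes rest on the SEs of the quasi-likelihood test and include the spread between samples.

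The genes named are all members, the 2 most similar genes of each, and the partners called between the CM groups by edgeR; markers and the partners called by DESeq2 alone were named after their values were seen. Members and lists were chosen with earlier results of these data known. Alternatives were other size factors, DESeq2 1.42.0, no filter, the replicate number as a block, other sets of samples and each sample left out.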

Additional observations from a re-analysis of the deposited data

How the results depend on the processing

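Of the 13 member differences called, 6 kept their call under every alternative that gave a value (3 of them Eya2, which passed the filter only through endoderm), 7 lost it under at least 1, and none changed sign. Other size factors and DESeq2 changed no count of called members by over 1.5 times. With the replicate block, 3 members were called between the CM groups (Eya1, with Six5 at edgeR adjusted p = 0.00397 and Eya4 at 0.0175) and 1 in Flk1+ high against Foxa2- CM, where Six5 was lost (edgeR adjusted p = 0.0730); endoderm against Flk1+ high gave 3, with Dach2 (0.0232). Same-numbered CM samples deviated together at r = 0.598, 0.0844 and 0.671, and differently numbered ones at r = -0.661 to 0.441. The study states no block for its own test, and the main test left the number out too. Whether the numbers pair the samples is not settled by these values. If they do, the fit with the block is the one that applies. Eya4 in endoderm against Foxa2+ CM turned to 0.049 under the block. With all 10 samples in 1 model, edgeR called 0 members between the CM groups (3 at an unadjusted p under 0.05; DESeq2 on the CM samples called 1, Eya1). With only the groups compared in the fit, 1 was called in Flk1+ high against Foxa2- CM (Six5 at edgeR adjusted p = 0.1004) and 1 in endoderm against Flk1+ high (Six5 at 0.0710). Without a filter, Dach1 in endoderm against Foxa2- CM (-0.0063) and Six4 in endoderm against Flk1+ high (-0.0034) changed sign near 0. Without division by length the share of Six2 in the CM comparison was 0.040 points. The cause of these changes was not tested. Shares of all genes called under the alternatives are not given here, so their counts of called members cannot be set against a background.

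With each sample left out, called members numbered 1 to 2 between the CM groups, 1 to 3 for Flk1+ high against Foxa2+ CM, 0 to 3 for Flk1+ high against Foxa2- CM and 1 to 4 for endoderm against Flk1+ high. None of the differences that changed sign in such fits had been called. Between the CM groups they were Six2 (-0.0022 to 0.23), Six4 (-0.066 to 0.041), Eya3 (-0.046 to 0.041) and Dach2 (-0.46 to 0.12), with the shares of Six2 (-4.01 to 0.68 points) and Eya2 (-0.069 to 0.015 points). In endoderm against Foxa2+ CM they were Eya3 (-0.12 to 0.0018), Eya4 (-0.98 to 0.48) and Dach1 (-0.91 to 0.086), and against Foxa2- CM Eya4 (-0.16 to 1.30) and Dach1 (-0.58 to 0.49). In Flk1+ high they were Eya2 against Foxa2+ CM (-4.15 to 1.31), and Eya1 (-0.86 to 0.90) and Eya2 (-4.38 to 1.08) against Foxa2- CM. In endoderm against Flk1+ high they were Six2 (-1.19 to 0.099), Six4 (-0.093 to 0.11), Eya1 (-1.34 to 0.44) and Eya4 (-1.17 to 0.29). Where an arm was left with 1 sample, that sample is assumed to vary like the other groups.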
